A study of Homo sapiens with 10 samples.

Results

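The genes described here are the WNT ligands, the Frizzled receptors that bind them, the secreted antagonists of both, and the nearest regulators of the pathway. They are 51 of the 28281 gene symbols counted. Members were taken by name, by a rule set with earlier results of these data known. The rule took each symbol made of WNT, a number and an optional letter, and each symbol made of FZD, DKK or SFRP and a number. The members also include a list of genes for co-receptors, R-spondin receptors, ligases, feedback and transcription. By role they are 19 ligands, 10 Frizzled receptors, 2 co-receptors (LRP5 and LRP6), 10 secreted antagonists (DKK1 to DKK4, 4 SFRP genes, WIF1 and NOTUM), 5 genes of the R-spondin branch (LGR4, LGR5, LGR6, RNF43 and ZNRF3), 2 intracellular feedback genes (AXIN2 and NKD1) and 3 nuclear factors (TCF7, TCF7L2 and LEF1). Poly(A) RNA was sequenced from A549 and NCI-H1944 (H1944), both established lines of human lung adenocarcinoma. In each line, cells labelled wild type (WT) were compared with cells labelled as knockout (KO) of APE1, the product of APEX1, an endonuclease of base excision repair that also acts as a redox regulator of transcription factors. Each genotype was represented by 3 libraries in A549 and by 2 in H1944. No other allele or treatment is given. The lines also differed in medium, DMEM for A549 and RPMI with sodium pyruvate for H1944. The labels do not say how the knockout was made, whether KO cells were a clone or a pool, or whether replicate libraries started from different cultures, so p-values speak only of library-to-library spread, part or all of which may be technical.

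WNT proteins are lipid-modified signals that act over short distances. At the receiving cell they bring a Frizzled receptor together with LRP5 or LRP6, which stops the destruction complex from degrading beta-catenin and lets beta-catenin join TCF and LEF proteins on DNA. Secreted antagonists act at separate points: DKK1 binds LRP5 and LRP6, SFRP proteins and WIF1 bind the ligand, and NOTUM removes its lipid. RNF43 and ZNRF3 are membrane ubiquitin ligases that remove Frizzled receptors from the surface, and R-spondins bound to LGR receptors remove the ligases in turn. AXIN2, NKD1, RNF43, ZNRF3 and LEF1 are widely used as targets of the pathway that feed back on it. In the lung, WNT7B is an epithelial ligand of the developing airway, and WNT signals maintain alveolar progenitor cells.

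Libraries held 18314224 to 30219850 counts. Levels are given as CPM, counts scaled to a common library size by the TMM method within each line, and 3 counts, the limit that a count of 0 allows, corresponded to 0.0993 to 0.164 CPM. APEX1 itself was at 220 ± 46.2 CPM (SD, n = 3) in A549 WT and 76.9 ± 26.8 CPM (n = 3) in A549 KO, and at 244 ± 0.763 CPM (n = 2) and 87.3 ± 0.363 CPM (n = 2) in H1944. The 3 A549 columns taken as KO are named 16, 65 and 66 and carry no genotype, and they were assigned because no other labelled group remained. The A549 libraries also split irrespective of genotype: WT 1 and KO 65 held 4839 and 5945 counts of a 28S ribosomal RNA gene and the other 4 held 0. In H1944 the same gene had 2935 and 4963 counts in WT, against 9291 and 9851 in KO. The chi-square per gene between replicate libraries was 1.89 for A549 WT 2 and WT 3, and 225 and 223 for each against WT 1. It was 126 for KO 16 and KO 66, and 256 and 222 for each against KO 65. For the H1944 pairs it was 3.26 in WT and 2.87 in KO. WT 2 and WT 3 of A549, and each H1944 pair, were thus far closer than the other replicates, and their spread may be technical. Of the epithelial keratins, KRT8 and KRT18 were high in all libraries, while KRT19 was at 1.38 ± 0.00689 CPM in H1944 WT, against 0.0679 ± 0.0462 CPM in KO (SD, n = 2). The lung lineage factor NKX2-1 had at most 3 counts in any A549 library and 0 in H1944. The summed lung lineage list of 6 genes was 26.0 to 49.0 CPM in A549, most of it FOXA2, and 9.58 to 11.5 CPM in H1944 WT, most of it NAPSA, against 0.805 to 1.06 CPM in KO. The endothelial marker KDR and the T cell marker CD3E had 0 counts in all 10 libraries. The summed endothelial list of 4 genes was 0.0453 to 2.44 CPM over all libraries. The summed leukocyte list of 6 genes was 37.6 to 48.2 CPM in A549, and 30.2 to 31.5 CPM in H1944 WT against 55.0 to 57.3 CPM in KO, most of it CD68, a lysosomal protein (log2 0.95 in H1944, edgeR adjusted p = 1.71e-11). In H1944 KO the epithelial genes EPCAM and CDH1 were at 0.949 and 8.02 CPM against 70.2 and 211 CPM in WT. CLDN3, CLDN4 and CLDN7 were also lower. The summed epithelial list was 17510 to 17906 CPM in KO against 9876 to 10041 CPM in WT, most of it KRT8 and KRT18. The summed mesenchymal list was 1177 to 1197 CPM in KO against 359 to 362 CPM in WT, nearly all of it vimentin. Of its other genes, COL3A1 (0.179 to 2.31 CPM) and DCN rose in KO, COL1A1 fell (10.1 to 5.87 CPM), and LUM and PDGFRB did not pass. COL1A2 and PDGFRA, too low to test, had 0 counts in KO. The marker genes that changed and the 28S counts moved with every H1944 difference given here, and their part in those differences was not tested. In bulk RNA, fewer cells of a type and less RNA per cell cannot be told apart.

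Of the 51 members, 27 had enough counts to be tested in both lines, 7 in A549 alone (WNT4, WNT5B, WNT6, SFRP1, SFRP4, SFRP5 and NOTUM) and 3 in H1944 alone (WNT10A, FZD10 and LEF1). The other 14 were tested in neither line: WNT1, WNT2, WNT3A, WNT7A, WNT8A, WNT8B, WNT9B, WNT11, WNT16, DKK2, DKK4, SFRP2, WIF1 and LGR5. Their highest count in any library was 30, for WNT7A in A549 KO 16, and DKK4 had 0 counts in all 10. Levels of different genes were compared as CPM per kilobase of exon, with each line scaled on its own, so values set across the lines are descriptions.

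WNT7B dominated the ligands. It held 90.0% ± 0.925 (SD, n = 3) of the summed ligand level per kilobase in A549 WT, 87.8% ± 1.52 (n = 3) in A549 KO, 51.3% ± 2.53 (n = 2) in H1944 WT and 75.5% ± 0.488 (n = 2) in H1944 KO. The sum itself was 66.4 ± 12.1 CPM per kilobase in A549 WT, 58.3 ± 13.8 in A549 KO, 8.82 ± 0.245 in H1944 WT and 24.2 ± 0.697 in H1944 KO. The main receptor differed by line and, in H1944, by genotype. FZD2 made up 63.5% ± 9.21 of the summed Frizzled level in A549 WT and 59.3% ± 3.32 in A549 KO. In H1944 WT, FZD10 and FZD6 held 35.6% ± 1.24 and 34.8% ± 0.820, whereas in H1944 KO FZD10 held 1.13% ± 0.101, FZD6 33.3% ± 0.996 and FZD2 19.2% ± 1.85. The Frizzled sum was 56.7 ± 4.83 CPM per kilobase in A549 WT and 56.7 ± 0.751 in H1944 WT, and was 66.9 ± 5.60 in A549 KO and 27.4 ± 1.44 in H1944 KO. DKK1 held 78.9% to 94.3% of the summed antagonist level in the 4 groups. That sum was 167 ± 89.3 CPM per kilobase in A549 WT, 114 ± 41.2 in A549 KO, 1.81 ± 0.101 in H1944 WT and 43.9 ± 0.714 in H1944 KO. The stacked levels of receptors and ligands show the near loss of the FZD10 band and the wider WNT7B band in H1944 KO.

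**Figure D1:**
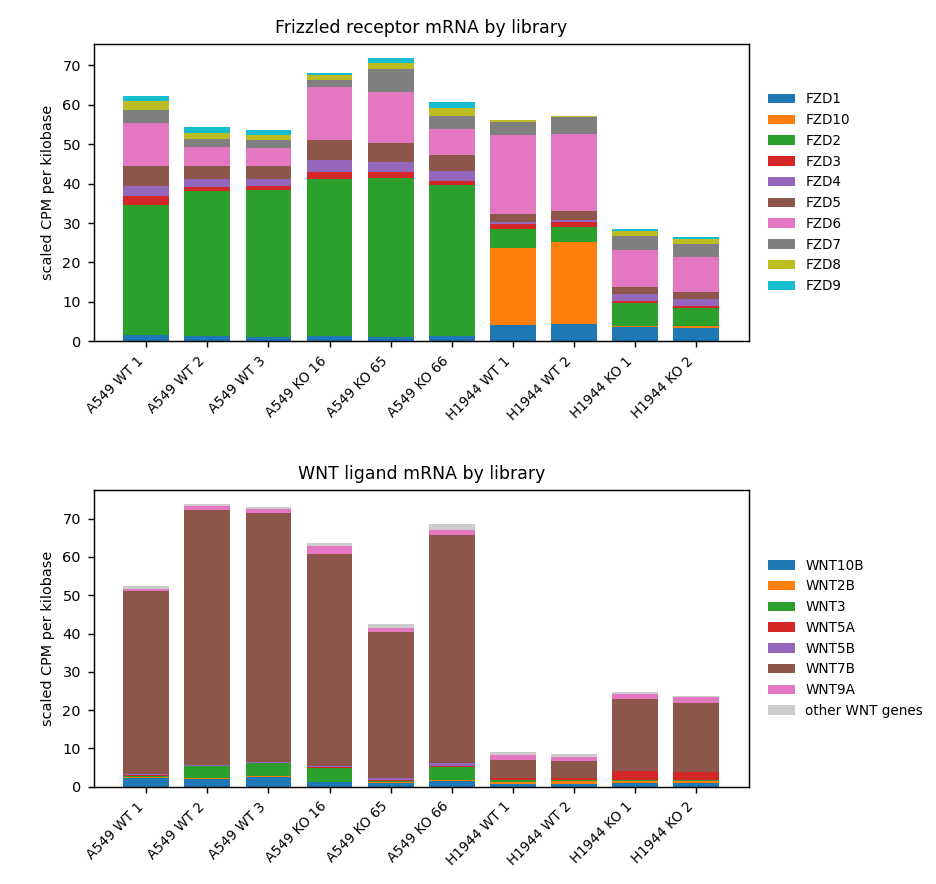
Stacked level per kilobase (CPM per kilobase of exon) of the Frizzled receptors and of the WNT ligands in the 10 libraries, with the less abundant ligands pooled. FZD10 falls from 34.7% and 36.4% of the receptor sum in the H1944 WT libraries to 1.06% and 1.20% in the KO libraries, and is at 0 in A549.

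In H1944 the knockout cells differed from wild type in 20 of the 30 members tested, at an adjusted p under 0.05 by the quasi-likelihood test of edgeR with Benjamini-Hochberg adjustment over all 16626 genes tested. The largest changes were the near loss of FZD10 and the gain of the antagonists DKK1 and DKK3, beside higher WNT7B, WNT5A and AXIN2 and lower LRP5, LRP6, LGR4 and RNF43. Of the 20, 10 rose and 10 fell, where 33.2% of all genes tested rose and 33.9% fell. The share of members called, 66.7%, was thus near the 67.1% of all genes. Changes of at least 2-fold were more frequent: 15 of 30 members (50%, 8 higher and 7 lower) against 21.4% of all genes. As the members were chosen with earlier results of these data known, this contrast is a description. The median size of the log2 change, sign left out, was 1.08 over the members and 0.43 over all genes, while the signed medians were -0.0028 and -0.0065. In a fit of all 10 libraries, which shares the spread with A549, WNT5A, WNT9A, WNT10A, FZD1, FZD5, FZD6, LRP6, LGR4, AXIN2 and TCF7 kept their direction but missed the threshold (adjusted p = 0.110 to 0.617). Adjusted p-values with no other tool named are from edgeR, and standard errors (SE) of log2 changes are approximate.

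**Figure D2:**
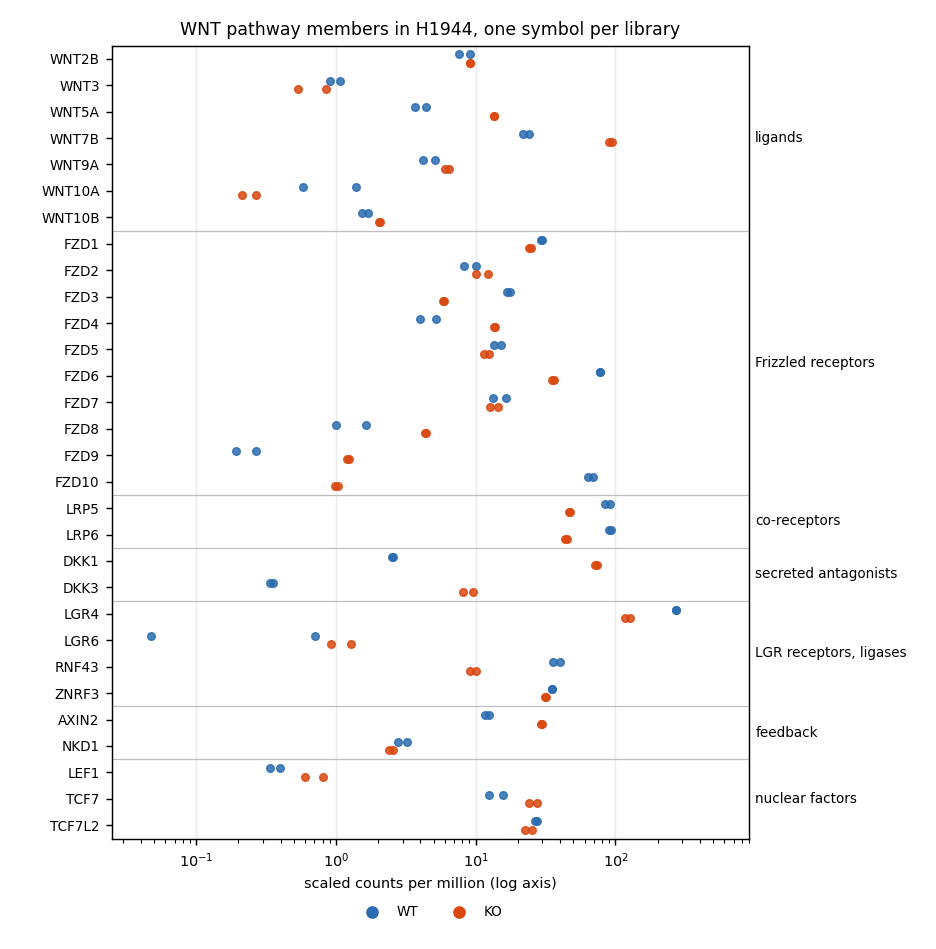
Level of each member tested in H1944, in CPM on a log axis, with 1 symbol per library (2 WT, 2 KO) and members grouped by role. FZD10, DKK1 and DKK3 show the widest gaps between genotypes, and the symbols of LGR6 WT lie far apart at 0.0477 and 0.709 CPM.

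Because the title of the study names G-quadruplexes, structures that DNA with several runs of guanine can fold into, the promoter windows of members were searched for such runs. RefSeq windows (GRCh38.p14, 250 bases before to 50 after the start) were matched by symbol for 33 of the 51 members. The motif was 4 runs of at least 3 G with 1 to 7 bases between them, on either strand, and 20 of 33 member windows (60.6%) held it, against 24.1% of the 27305 windows in the table and 33.4% of the windows of genes tested in H1944. Member windows had a median of 67.0% G and C, against 58.3% in the whole table and 64.7% for genes tested in H1944. By direction in H1944, 5 of 7 higher members, 3 of 6 lower members and 2 of 5 members not called held the motif, and over all genes it was in 37.5% of windows of higher genes and 30.6% of those of lower genes. The TCF core motif CTTTGAT or CTTTGAA, on either strand, was in 1 of 33 member windows (3.03%), that of DKK1, in 6.98% of all windows and in 4.28% of those of genes tested in H1944. These are letter matches and no folding or binding was measured. The 250 bases upstream of the start are printed for DKK1 and FZD4, which rose, and for LGR4 and LRP5, which fell in H1944. Each runs 5′ to 3′ on the strand of its gene, in lower case, with capitals for bases of a G-run motif (runs of C where it lies on the other strand) or the TCF core. DKK1 is chr10:52314031-52314280 on the plus strand, with the G-run motif on the other strand and the TCF core. FZD4 is chr11:86955396-86955645 on the minus strand, with the motif on its own strand, LGR4 is chr11:27472791-27473040 on the minus strand, with neither motif, and LRP5 is chr11:68312341-68312590 on the plus strand, with the G-run motif on both strands.
DKK1: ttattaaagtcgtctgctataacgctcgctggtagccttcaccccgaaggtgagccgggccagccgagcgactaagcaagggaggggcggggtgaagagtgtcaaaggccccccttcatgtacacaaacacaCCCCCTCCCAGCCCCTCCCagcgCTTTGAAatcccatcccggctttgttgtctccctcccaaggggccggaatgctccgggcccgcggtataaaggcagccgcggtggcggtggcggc
FZD4: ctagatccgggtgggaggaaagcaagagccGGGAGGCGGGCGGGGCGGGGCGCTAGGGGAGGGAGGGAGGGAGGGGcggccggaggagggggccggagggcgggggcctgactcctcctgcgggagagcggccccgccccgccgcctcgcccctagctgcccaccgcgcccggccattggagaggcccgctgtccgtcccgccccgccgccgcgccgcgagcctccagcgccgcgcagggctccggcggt
LGR4: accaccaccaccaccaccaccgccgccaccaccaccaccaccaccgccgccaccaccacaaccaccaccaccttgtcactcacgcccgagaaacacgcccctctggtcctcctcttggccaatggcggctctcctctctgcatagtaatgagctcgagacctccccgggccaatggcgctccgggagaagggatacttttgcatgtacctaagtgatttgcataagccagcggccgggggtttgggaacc
LRP5: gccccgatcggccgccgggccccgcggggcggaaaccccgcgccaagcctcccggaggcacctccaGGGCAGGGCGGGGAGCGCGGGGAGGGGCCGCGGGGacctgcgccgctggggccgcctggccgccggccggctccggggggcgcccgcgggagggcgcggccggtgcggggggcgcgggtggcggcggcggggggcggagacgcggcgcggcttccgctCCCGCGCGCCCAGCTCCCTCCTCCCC
Of these 4 stretches, those of DKK1 and FZD4, which rose, and of LRP5, which fell, held the G-run motif, and that of LGR4 held none. They are examples, and other changed members with a window, such as FZD9, RNF43 and WNT10A, are not printed. Whether the motif goes with direction was not tested.

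Among ligands in H1944, 3 of the 7 tested rose and 1 fell (57.1% called, against 67.1% of all genes). WNT7B, the most abundant, was at 24.1 and 21.6 CPM in the WT libraries and at 94.5 and 89.9 CPM in the KO libraries. It was 4.02-fold higher in KO (log2 fold change 2.01, SE 0.0607, adjusted p = 1.54e-17). WNT5A, a ligand known mainly for signalling that does not need beta-catenin, was at 3.68 and 4.43 CPM in WT and 13.5 CPM in both KO libraries. Its rise was 3.33-fold (log2 1.73, SE 0.145, adjusted p = 6.96e-10). WNT9A was at 5.14 and 4.2 CPM in WT and 6.06 and 6.40 CPM in KO, a 1.33-fold rise at an adjusted p of 0.0402. That call was lost without WT 2 (adjusted p = 0.239), KO 1 (0.0654) or KO 2 (0.156), and with DESeq2 (0.208). WNT10A, at 0.576 and 1.38 CPM in WT and 0.211 and 0.268 CPM in KO, fell 3.98-fold (adjusted p = 0.00318). It rested on 13 and 29 counts in WT against 6 and 8 in KO, and without WT 2 the log2 change was -1.24 (adjusted p = 0.208).

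The 3 other ligands tested in H1944 did not pass. WNT2B was at 7.57 and 9.06 CPM in WT and 9.12 and 9.02 CPM in KO (log2 0.13, SE 0.140, adjusted p = 0.440). WNT10B was at 1.68 and 1.53 CPM in WT and 2.04 CPM in both KO libraries (log2 0.35, SE 0.285, adjusted p = 0.293). WNT3 was at 1.06 and 0.906 CPM in WT and 0.845 and 0.536 CPM in KO (log2 -0.51, SE 0.415, adjusted p = 0.283). For WNT10B and WNT3 the libraries of each genotype did not overlap, but neither difference passed. With 2 against 2 libraries, separation can arise with no difference, and its share over all H1944 genes was not counted. Exons of WNT2B share 20.9% of their length with ST7L, and counting by strand was not stated, so its level is uncertain.

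All 10 Frizzled receptors were tested in H1944, and 3 rose and 5 fell (80% called, against 67.1% of all genes). FZD10 (chr12:130162459-130165740, plus strand, GRCh38) was at 64.0 and 68.5 CPM in WT and at 0.986 and 1.04 CPM in KO, from 1445 and 1437 counts to 28 and 31. This 65.1-fold fall (log2 -6.02, SE 0.111, adjusted p = 2.39e-21) had the smallest adjusted p of the members. FZD10 had 0 counts in all 6 A549 libraries. Its divergent neighbour on the minus strand, named FZD10-DT in the GENCODE annotation, begins 202 bases away. The counted symbol FZD10-AS1 was taken to be this gene and was looked up after its values were seen. It was at 41.3 and 41.0 CPM in WT and 0.423 and 0.536 CPM in KO (log2 -6.41). FZD6, with 78.0 and 76.9 CPM in WT and 36.3 and 35.2 CPM in KO, fell 2.16-fold (adjusted p = 4.57e-14). FZD3, a receptor known for planar polarity and axon guidance, was at 16.7 and 17.4 CPM in WT and 5.88 and 5.83 CPM in KO, a 2.91-fold fall (adjusted p = 2.76e-10). After the fall of FZD10, the most abundant Frizzled transcript per kilobase in KO was FZD6.

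The rising receptors started from low levels. FZD4, which also serves as the receptor for norrin, was at 5.23 and 3.96 CPM in WT and at 13.6 CPM in both KO libraries, a 2.95-fold rise (adjusted p = 4.82e-09). FZD4 exons share 17% of their length with PRSS23, so part of these counts could belong to that gene. FZD8 was at 1.64 and 1.00 CPM in WT and 4.40 and 4.32 CPM in KO (3.28-fold, adjusted p = 5.23e-06). FZD9 was at 0.266 and 0.191 CPM in WT and 1.20 and 1.24 CPM in KO (5.22-fold, adjusted p = 0.000194). Per kilobase, FZD8 and FZD9 in KO remained below every other Frizzled gene except FZD3 and FZD10. Small falls passed for FZD1, at 29.1 and 29.8 CPM in WT and 24.7 and 24.2 CPM in KO (1.20-fold, adjusted p = 0.00327), and for FZD5, at 13.5 and 15.2 CPM in WT and 12.5 and 11.5 CPM in KO (1.19-fold, adjusted p = 0.0486). DESeq2 called neither (adjusted p = 0.0563 and 0.239), and FZD5 was also lost with unfiltered genes (0.0636) and without WT 2 (0.312), KO 1 (0.0547) or KO 2 (0.231). Not called were FZD2, at 10.1 and 8.20 CPM in WT and 12.3 and 9.99 CPM in KO (adjusted p = 0.0809), and FZD7, at 13.3 and 16.4 CPM in WT and 14.4 and 12.7 CPM in KO (adjusted p = 0.326). Genotypes overlapped in both, and FZD2 passed without WT 1 (log2 0.44, adjusted p = 0.0131) and without KO 2 (0.43, adjusted p = 0.0153).

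Both co-receptors fell. LRP6 was at 89.5 and 92.4 CPM in H1944 WT and 43.8 and 44.7 CPM in KO, a 2.06-fold fall (log2 -1.04, SE 0.0487, adjusted p = 3.43e-14). LRP5 was at 91.3 and 83.5 CPM in WT and 46.7 and 46.9 CPM in KO, a 1.87-fold fall (log2 -0.90, SE 0.0521, adjusted p = 1.34e-12).

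The antagonists tested in H1944 both rose from low levels, where 33.2% of all genes tested rose. DKK1 (chr10:52314296-52318042, plus strand, GRCh38), the antagonist that occupies LRP5 and LRP6, was at 2.52 and 2.57 CPM in WT and 74.1 and 71.5 CPM in KO. The rise was 28.5-fold (log2 4.83, SE 0.0935, adjusted p = 5.17e-21). DKK3, a family member that binds the co-receptors poorly if at all, was at 0.354 and 0.334 CPM in WT and 8.13 and 9.52 CPM in KO, a 25.3-fold rise (log2 4.66, SE 0.256, adjusted p = 5.67e-13). Exons of the antisense gene PRKG1-AS1 share 11.8% of the length of DKK1, so part of the DKK1 counts could belong to that gene. It was at 1.21 CPM, against 2.55 CPM for DKK1, in WT, and at 3.26 CPM, against 72.8 CPM for DKK1, in KO. SFRP4 was below the filter, with 10 and 8 counts in WT and 0 and 2 in KO, a count ratio of 12.4 (95% interval 2.97 to 110, counting error only). SFRP1, with 3 and 2 counts in WT and 2 and 0 in KO, and SFRP5, with 2 and 0 against 0 and 7, were at the detection limit, and NOTUM had 5 and 2 counts against 17 and 8.

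In the R-spondin branch, LGR4 and RNF43 fell, 2 of the 4 genes tested in H1944 (50% called, against 67.1% of all genes). LGR4, the R-spondin receptor with the broadest expression, was at 272 and 271 CPM in H1944 WT and 116 and 126 CPM in KO (2.24-fold lower, log2 -1.16, SE 0.0404, adjusted p = 2.12e-16). RNF43 was at 35.9 and 39.8 CPM in WT and 10.1 and 9.05 CPM in KO (3.96-fold lower, log2 -1.98, SE 0.0905, adjusted p = 2.19e-14). RNF43 shares 16.6% of its exon length with SUPT4H1 and TSPOAP1-AS1, the latter at 34.9 CPM in WT, against 43.9 CPM in KO. Its related ligase ZNRF3 was at 35 and 34.9 CPM in WT and 31.5 and 31.7 CPM in KO and did not pass (log2 -0.15, SE 0.0665, adjusted p = 0.0586). LGR6 had 0.709 and 0.0477 CPM in WT and 0.916 and 1.27 CPM in KO (adjusted p = 0.0502). It passed in 6 of the alternatives, with an adjusted p of 4.74e-05 without WT 1.

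The feedback genes gave different results. AXIN2, a scaffold of the destruction complex and a common readout of beta-catenin activity, was at 12.4 and 11.7 CPM in H1944 WT and 29.4 and 29.9 CPM in KO, a 2.46-fold rise (log2 1.3, SE 0.0865, adjusted p = 1.60e-11). NKD1, which binds Dishevelled, was at 2.79 and 3.24 CPM in WT and 2.57 and 2.38 CPM in KO and did not pass (log2 -0.28, SE 0.236, adjusted p = 0.300). Genes often used as readouts of the pathway were thus not all called in 1 direction: AXIN2 rose, RNF43 fell, and NKD1, ZNRF3 and LEF1 did not pass. SP5, a target outside the members picked after its values were seen, also rose (log2 2.07, adjusted p = 0.0017). A missed threshold does not show that a gene did not move. Of the nuclear factors, TCF7 rose 1.84-fold, from 12.5 and 15.5 CPM in WT to 27.2 and 24.2 CPM in KO (adjusted p = 1.78e-07). TCF7L2 was at 27.4 and 26.3 CPM in WT and 25.1 and 22.6 CPM in KO (adjusted p = 0.0639) and passed without KO 1 (adjusted p = 0.0438). LEF1 had 9 and 7 counts in WT and 17 and 24 in KO, and its difference did not pass (adjusted p = 0.110).

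In A549 no member passed. At an adjusted p under 0.05, edgeR called 0 of the 34 members tested, where 0.00633% of all genes (1 of 15806) were called. DESeq2 and limma also called 0 members, and 2 members, WNT10B and LGR6, had an unadjusted p under 0.05. The WT and KO libraries did not overlap for 6 of 34 members (17.6%), against 10.7% of all genes tested. The median log2 change was -0.08 over the members and 0.02 over all genes, and the median size was 0.24 against 0.22. An exact permutation test of 3 against 3 libraries cannot go below 0.1, and over the 34 tests the lowest adjusted value was 0.567.

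The 6 members with separated groups were WNT4, WNT10B, FZD2, FZD4, SFRP4 and LGR6. WNT4, a ligand known from kidney and reproductive tract development, was at 0.777, 0.441 and 0.227 CPM in WT 1, 2 and 3 and at 0.891, 2.09 and 0.799 CPM in KO 16, 65 and 66 (log2 1.38, SE 0.609, adjusted p = 0.901). WNT10B was at 4.90, 4.41 and 5.62 CPM in WT and 2.58, 2.31 and 3.42 CPM in KO, in the same order of libraries (log2 -0.84, SE 0.276, adjusted p = 0.775). LGR6, an R-spondin receptor, was at 32.7, 50.4 and 48.2 CPM in WT and 12.9, 30.6 and 27.3 CPM in KO (log2 -0.89, SE 0.356, adjusted p = 0.859). WNT4 was thus higher, and WNT10B and LGR6 lower, in 3 of 3 KO libraries. FZD4 was at 18.4, 13.3 and 11.9 CPM in WT and 23.5, 18.5 and 18.9 CPM in KO (log2 0.48, SE 0.240, adjusted p = 0.939). FZD2 was at 69.6, 77.9 and 78.9 CPM in WT and 84.4, 85.4 and 80.7 CPM in KO (log2 0.15, SE 0.158, adjusted p = 0.995). SFRP4, a secreted ligand-binding antagonist, was at 4.90, 4.89 and 4.62 CPM in WT and 3.89, 3.69 and 4.09 CPM in KO (log2 -0.30, SE 0.226, adjusted p = 0.995). The nearest WT and KO libraries were at 18.4 and 18.5 CPM for FZD4, 0.777 and 0.799 CPM for WNT4, 78.9 and 80.7 CPM for FZD2, 32.7 and 30.6 CPM for LGR6 and 4.62 and 4.09 CPM for SFRP4.

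**Figure D3:**
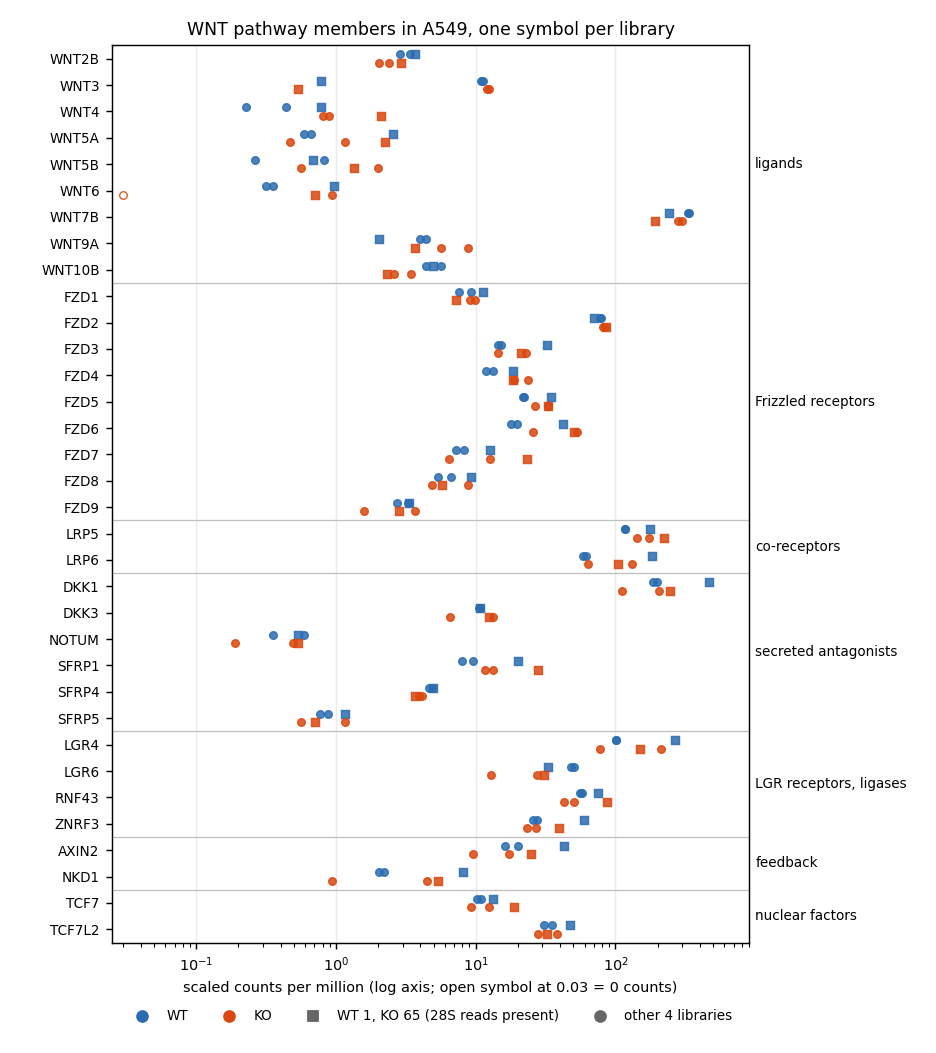
Level of each member tested in A549, in CPM on a log axis, with 1 symbol per library (3 WT, 3 KO); squares mark WT 1 and KO 65 and an open symbol a count of 0. WNT3 splits by library set, with both squares under 1 CPM and the other 4 libraries between 10.9 and 12.5 CPM.

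In A549 some members split by library set. For 13 of the 34 the 2 libraries with 28S counts did not overlap the other 4, against 30.7% of all genes tested in A549. WNT3, an activator of the beta-catenin branch, was as low as 0.777 CPM in WT 1 and 0.533 in KO 65 but at 10.9, 11.2, 12.5 and 11.9 CPM in WT 2, WT 3, KO 16 and KO 66. WNT5A showed the reverse split, at 2.57 and 2.22 CPM in WT 1 and KO 65 and 0.661, 0.589, 0.469 and 1.15 CPM in the other 4. WNT7B was at 241 and 193 CPM in WT 1 and KO 65 and at 336, 328, 280 and 300 CPM in WT 2, WT 3, KO 16 and KO 66. A comparison within sets, KO 65 against WT 1 and KO 16 and KO 66 each against the mean of WT 2 and WT 3, gave WNT7B log2 changes of -0.32, -0.25 and -0.14. For 14 of 34 members these 3 within-set changes had 1 sign, against 34.1% of all genes tested. WNT10B gave -1.06, -0.92 and -0.53 and WNT4 gave 1.33, 1.26 and 1.12, so both kept much of their size in each set. For members with separated groups the single sign was fixed in advance, because every KO library lay beyond every WT library. For LGR6 the values were -0.09, -1.93 and -0.85, and for FZD4 0.01, 0.90 and 0.59, so in both the difference lay mainly in the larger set.

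**Figure D4:**
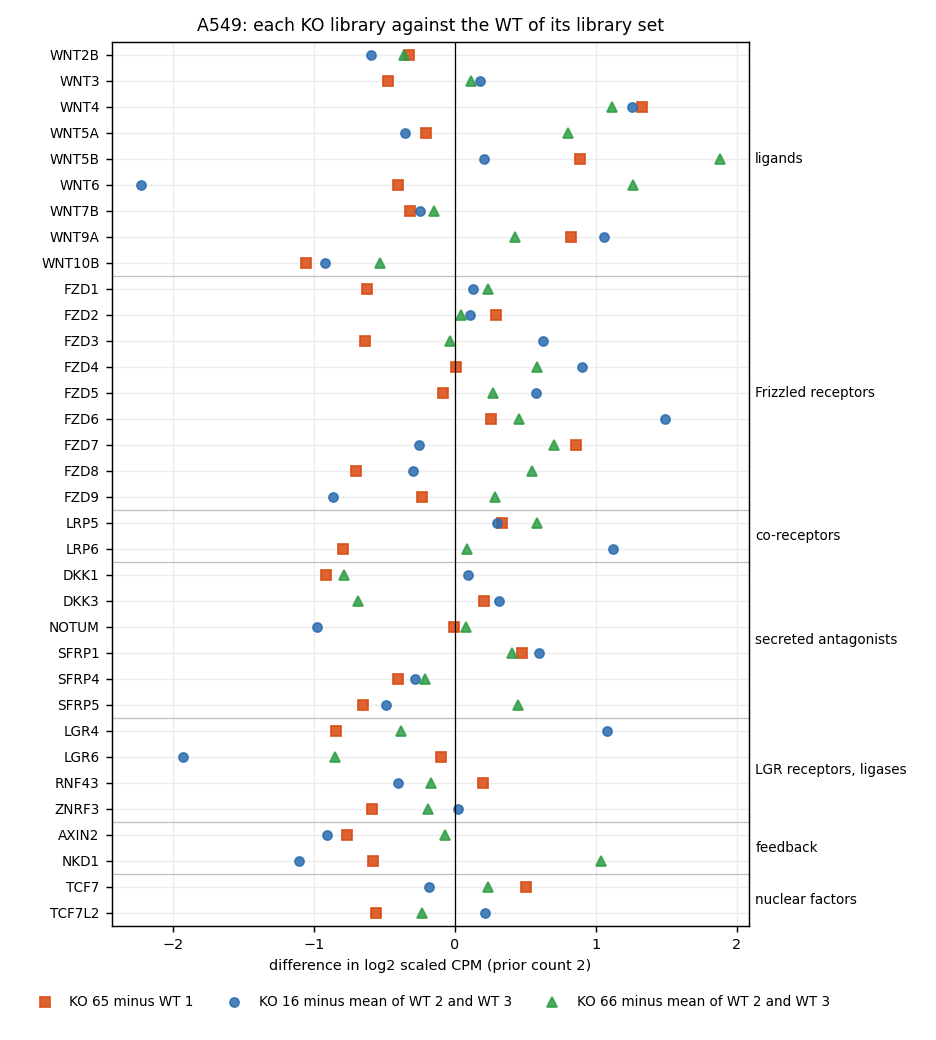
Log2 change of each A549 member within library sets: KO 65 against WT 1, and KO 16 and KO 66 each against the mean of WT 2 and WT 3. WNT4 and WNT10B, whose KO libraries all lay beyond the WT libraries, must lie on 1 side of 0, while LGR4 runs from -0.85 in KO 65 to 1.08 in KO 16.

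The remaining ligands of A549 overlapped between genotypes. WNT9A was at 2.04, 3.96 and 4.40 CPM in WT and 8.77, 3.69 and 5.64 CPM in KO (log2 0.80, SE 0.431, adjusted p = 0.969). WNT5B was at 0.680, 0.264 and 0.816 CPM in WT and 0.563, 1.33 and 2.0 CPM in KO (log2 1.14, SE 0.615, adjusted p = 0.969). WNT2B was at 3.69, 2.86 and 3.35 CPM in WT and 2.02, 2.93 and 2.40 CPM in KO (log2 -0.43, SE 0.288, adjusted p = 0.995). The 2 noncanonical ligands WNT5A and WNT5B stayed under 3 CPM in every A549 library. WNT6 had 0 to 21 counts per library, SFRP5 12 to 26 and NOTUM 4 to 13, with genotypes overlapping in each. WNT10A had at most 2 counts and LEF1 at most 2 counts in any A549 library.

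Receptors other than FZD2 and FZD4 overlapped as well. FZD6 was at 42.1, 19.8 and 17.9 CPM in WT and 53.3, 50.3 and 25.8 CPM in KO (log2 0.70, SE 0.420, adjusted p = 0.995). FZD7 was at 12.7, 7.18 and 8.25 CPM in WT and 6.43, 23.1 and 12.6 CPM in KO. FZD3 was at 32.5, 14.4 and 15.1 CPM in WT and 22.8, 20.9 and 14.4 CPM in KO. FZD6 was higher than its own set's WT in all 3 KO libraries, and FZD3 and FZD7 were not of 1 sign. FZD5 was at 34.6, 22.2 and 21.8 CPM in WT and 32.9, 32.7 and 26.5 CPM in KO. FZD8 was at 9.27, 6.70 and 5.39 CPM in WT and 4.88, 5.68 and 8.84 CPM in KO. FZD9 was at 3.30, 3.26 and 2.72 CPM in WT and 1.6, 2.80 and 3.64 CPM in KO, and FZD1 was between 7.24 and 11.2 CPM in the 6 libraries, with overlap in each of these genes.

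LRP5, DKK1, SFRP1, AXIN2 and NKD1 were among the 13 members split by library set. LRP5 was at 176, 117 and 116 CPM in WT and 143, 222 and 174 CPM in KO (log2 0.40, SE 0.255, adjusted p = 0.995), with within-set values of 0.33, 0.30 and 0.58. LRP6 was at 182, 58.5 and 61.1 CPM in WT and 130, 105 and 63.6 CPM in KO (log2 -0.01, SE 0.501, adjusted p = 0.999). LRP6 was highest in WT 1, and its log2 change became 0.73 without that library. DKK1, the dominant antagonist, was at 465, 199 and 187 CPM in WT and 206, 247 and 112 CPM in KO (log2 -0.59, SE 0.444, adjusted p = 0.995). DKK3 was at 10.7, 10.6 and 10.7 CPM in WT and 13.3, 12.4 and 6.57 CPM in KO, on both sides of the WT values. SFRP1 was at 19.9, 9.56 and 7.93 CPM in WT and 13.2, 27.8 and 11.5 CPM in KO (log2 0.49, SE 0.475, adjusted p = 0.995). AXIN2 was at 42.5, 16.1 and 20.1 CPM in WT and 9.57, 25.0 and 17.1 CPM in KO (log2 -0.61, SE 0.475, adjusted p = 0.995), lower than WT within each set at -0.77, -0.90 and -0.07. NKD1 was at 8.06, 2.20 and 2.04 CPM in WT and 0.938, 5.37 and 4.44 CPM in KO.

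LGR4 was at 268, 100 and 100 CPM in A549 WT and 212, 149 and 77.1 CPM in KO (log2 -0.10, SE 0.508, adjusted p = 0.995). It was highest in WT 1, and without that library its change was 0.54. The ligase RNF43 was at 75.3, 55.5 and 57.4 CPM in WT and 42.7, 86.4 and 50.1 CPM in KO, and ZNRF3 at 59.3, 27.2 and 25.8 CPM in WT and 26.9, 39.5 and 23.2 CPM in KO. Both ligases were highest in the libraries with 28S counts, in either genotype. TCF7 was at 13.2, 10.9 and 10.2 CPM in WT and 9.29, 18.8 and 12.4 CPM in KO, and TCF7L2 at 47.5, 30.8 and 34.9 CPM in WT and 38.0, 32.2 and 27.9 CPM in KO, again with overlapping genotypes.

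The response of 6 members to the knockout differed between the lines, in 1 fit of all 10 libraries with a term for the A549 change minus the H1944 change. They were 6 of 37 members (16.2%), where 6.95% of all genes were called. The members were chosen with earlier results of these data known, so these shares are a description. The difference was -5.43 for DKK1 (SE 0.642, adjusted p = 0.00166), -4.68 for DKK3 (SE 0.457, adjusted p = 0.000769) and -2.27 for WNT7B (SE 0.327, adjusted p = 0.00434). For each of these genes H1944 KO rose and A549 showed no called change: DKK1 moved from 2.55 ± 0.0355 to 72.8 ± 1.83 CPM (SD, n = 2) in H1944, against 284 ± 157 and 189 ± 69.4 CPM (n = 3) in A549. H1944 KO was thus below the A549 WT mean for DKK1, DKK3 and WNT7B even after the rise, at 72.8, 8.83 and 92.2 CPM against 284, 10.7 and 302 CPM. DKK1, DKK3 and WNT7B were called in all 15 alternatives tried. FZD9 gave -2.61 (SE 0.582, adjusted p = 0.0303), with A549 KO and WT overlapping and H1944 KO higher.

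The 2 positive differences were RNF43, at 1.90 (SE 0.420, adjusted p = 0.0291), and SFRP4, at 3.07 (SE 0.735, adjusted p = 0.0401). RNF43 fell in H1944 and overlapped in A549, and SFRP4 rests on H1944 counts of 10 and 8 against 0 and 2, with a difference of 2.19 without H1944 KO 1 and 5.88 without H1944 KO 2. The calls of FZD9, RNF43 and SFRP4 were lost in 8, 6 and 7 of the 15 alternatives. For FZD9 and RNF43 every H1944 library was needed: the adjusted p without 1 of them was 0.112 to 0.165 for FZD9 and 0.0941 to 0.148 for RNF43, and without WT 2 or WT 3 of A549 it was 0.0737 and 0.0604 for FZD9 and 0.0744 and 0.0737 for RNF43. FZD9 also missed without KO 65 of A549 (0.0504). SFRP4 missed without H1944 WT 1 (0.158), H1944 WT 2 (0.128), H1944 KO 1 (0.166), and A549 WT 2 (0.0879), WT 3 (0.0905), KO 16 (0.0614) or KO 65 (0.0559).

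Several members called in H1944 did not reach the threshold for a difference between lines. LRP5 gave 1.29 (SE 0.331, adjusted p = 0.0518), and passed in 6 of the alternatives. FZD8 gave -1.87 (adjusted p = 0.0599), FZD4 -1.10 (adjusted p = 0.0725) and FZD6 1.80 (adjusted p = 0.0899). These 3 passed with the library set as covariate (adjusted p = 0.0382, 0.0383 and 0.0145) and with DESeq2 (0.00849, 0.0197 and 0.0190). AXIN2, with opposite signs in the lines, gave -1.90 (SE 0.644, adjusted p = 0.122), and LGR4 1.05 (SE 0.669, adjusted p = 0.406). AXIN2 passed with the library set as covariate (-1.87, adjusted p = 0.00846) and with DESeq2 (0.0306), and WNT5A and FZD3 passed with the covariate (-1.62 and 1.52, adjusted p = 0.0467 and 0.0207). LRP6 passed without A549 WT 1 (1.72, adjusted p = 0.0203). FZD4 was higher in KO than in every WT library in both lines. FZD10 could not be compared, since A549 had no counts of it. A missed threshold does not show equal responses, as the SE of LGR4, LRP6 (0.657) and WNT5A (0.976) allow differences as large as the H1944 change itself.

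**Figure D5:**
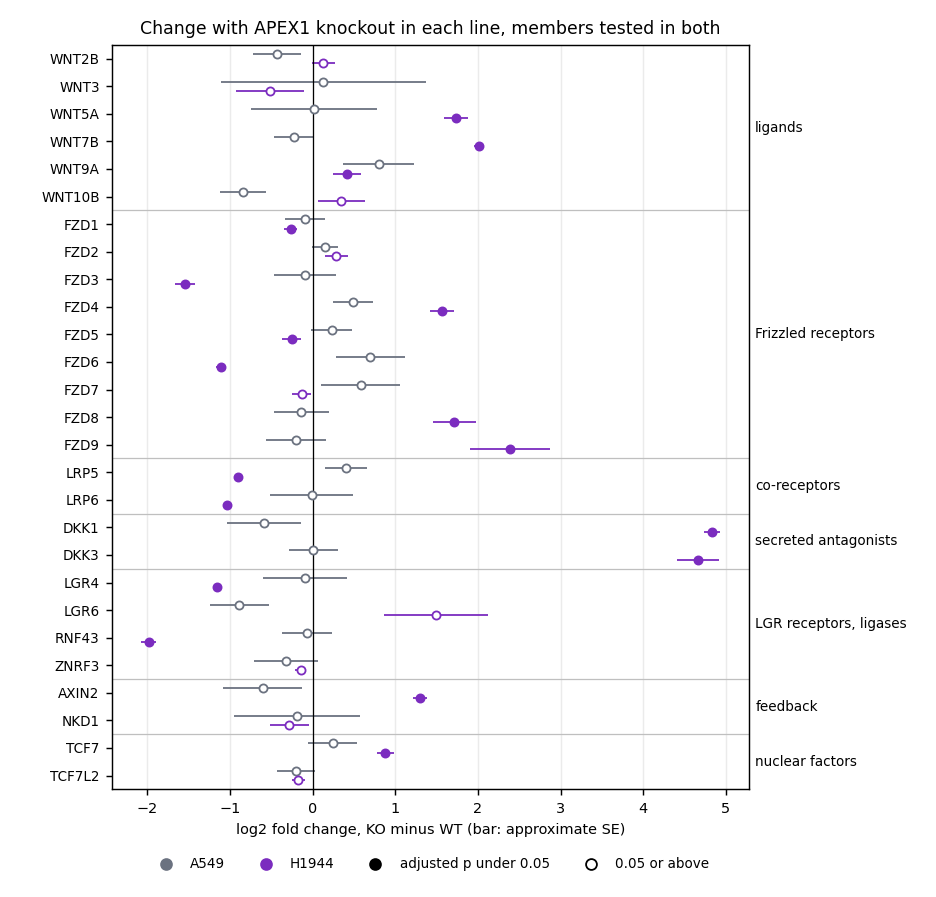
Log2 change, KO minus WT, of the 27 members tested in both lines, with bars of 1 approximate SE, for A549 (3 against 3 libraries) and H1944 (2 against 2); filled points passed at an adjusted p under 0.05. DKK1 and DKK3 lie at 4.83 and 4.66 in H1944 and at -0.59 and 0.01 in A549, and the A549 bars are wider for most members.

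Other genes of the pathway were taken from fixed lists, with at most the 4 genes of smallest adjusted p named, and RSPO3 and CTNNB1 besides, chosen after their values were seen. In A549 none of the listed genes was called by edgeR. In H1944 both release genes rose: WLS, which carries WNT proteins to the surface, from 13.0 ± 0.721 to 44.3 ± 3.27 CPM (SD, n = 2; log2 1.77, adjusted p = 3.3e-14), and PORCN, which attaches their lipid, by 0.23 on the log2 scale (adjusted p = 0.014). Among R-spondins and other extracellular regulators, 4 of 6 tested rose and 1 fell, or 83.3% called against 67.1% of all genes. These were TRABD2A, a protease that cleaves WNT proteins (log2 4.32), KREMEN2 and KREMEN1, membrane partners of DKK1 (2.41 and 0.51), RSPO3 (0.22) and the glypican GPC6 (-1.43). RSPO3, the ligand of LGR receptors, was at 187 ± 1.92 CPM in WT, against 219 ± 1.96 CPM in KO. Among alternative receptors and planar polarity genes, 2 of 13 rose and 5 fell, or 53.8% called against the same 67.1%. PTK7 and ROR2, receptors of the branch that WNT5A uses, rose by 1.85 and 3.38, and CELSR1 and DAAM1 fell by 0.66 and 0.63 on the log2 scale.

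Downstream of the receptors, 7 of 13 Dishevelled and destruction complex genes rose and 0 fell, or 53.8% called against 67.1% of all genes. The 4 with the smallest adjusted p were the kinases CSNK1E (log2 1.29) and CSNK1A1 (0.39), DVL1 (0.38) and the ubiquitin ligase adaptor BTRC (0.50). CTNNB1, which encodes beta-catenin, was at 279 ± 3.88 CPM in WT, against 288 ± 1.97 CPM in KO (SD, n = 2; adjusted p = 0.23). Of 10 nuclear partners 4 rose and 2 fell (60.0% called), among them the coactivator BCL9L (0.64), the corepressor TLE4 (3.01), TCF7L1 (2.44) and PYGO2 (-0.71). Of 13 other targets tested, 6 rose and 5 fell (84.6% called): CCND1 rose from 133 ± 1.07 to 565 ± 2.93 CPM (log2 2.08), CD44 and ID2 rose by 1.70 and 1.37, and BAMBI fell by 1.90 on the log2 scale. As for the members, rising and falling genes stood side by side in most lists, the release and destruction complex lists excepted. The members and these lists are described by their counts and no test of a list was made.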

How the data were processed

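The deposited values are raw read counts per gene symbol, 1 table per line, with no normalization by the authors. Reads were trimmed with Trim Galore 0.5.0, aligned to hg38 with HISAT2 2.1.0 and counted with featureCounts 1.6.4, per the submitters' processing notes, which also name DESeq2. Strand, annotation and the treatment of multiply aligned reads are not given in the sources used here. The 3 A549 KO columns carry numbers only, and no per-sample column was left out.

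In R 4.3.3, edgeR 4.0.16 filtered genes (filterByExpr, minimum count 10), scaled libraries by TMM and tested each line alone by robust quasi-likelihood, and the difference between lines in 1 fit of all 10 libraries, with Benjamini-Hochberg adjusted p under 0.05 as the threshold. Single members of A549 had 2-sided exact permutation tests of log2 CPM (prior count 2). Approximate SE is the absolute log2 change over the square root of F. Exon lengths, overlaps and gene positions are from GENCODE annotation of GRCh38, which may differ from the annotation used for counting. Alternatives were other scaling, no filter, limma 3.58.1, DESeq2 1.42.0, leaving out each library, the A549 sets and a replicate block. The steps were tested on simulated counts. A member is named with its value in each library where a group mean reached 1 CPM, or where it passed a test, and the rest by counts or ranges. Floors and intervals cover counting error only. Members and lists were chosen with earlier results of these data known.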

Additional observations from a re-analysis of the deposited data

Results flagged for a closer look

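A change that differed between the lines, by the test of the difference itself (A549 change minus H1944 change, edgeR adjusted over all genes), set apart 6 members. The log2 difference was -5.43 for DKK1, -4.68 for DKK3, -2.27 for WNT7B, -2.61 for FZD9, 1.90 for RNF43 and 3.07 for SFRP4. In H1944 2 of 2 KO libraries lay beyond both WT libraries in each of the 6 genes. The 6 were picked by a test on these same libraries, so this separation adds no support. In A549 the KO libraries overlapped WT for 5 of the 6 genes, and SFRP4 was lower in 3 of 3.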

How the results depend on the processing

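Of the 20 members called in H1944, 10 kept their call in all 10 alternatives, 10 lost it in at least 1 and 0 changed direction. A fit of all 10 libraries with a shared spread called 6 higher and 5 lower in H1944 (2522 against 11164 genes overall). Leaving out 1 library gave 9 to 12 higher and 9 to 10 lower. With the replicate block, H1944 had 11 higher and 10 lower, LGR6 being added; the deviations of same-numbered libraries correlated at 0.0128 over 16626 genes, so the numbers were not taken as pairs. No paired analysis was possible because the KO columns carry no labelled numbers in A549. For the difference between lines, DESeq2 called 5 higher and 8 lower, limma 4 and 3, and the library set as a covariate 6 and 9, and leaving out 1 library gave 0 to 6 higher and 3 to 6 lower. Over all genes the difference had 1228 calls, 2237 with DESeq2, 2759 with the covariate and 397 to 2892 with 1 library left out, and A549 had 1, with 126 by DESeq2 and 16 in the fit of all 10 libraries. In A549 0 members were called in every alternative. The causes were not tested. Members under 3 counts in a library cannot be told from 0 at this depth.

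Directions that turned belonged to uncalled values. In A549, DKK3 (0.01) became -0.026 with RLE scaling, -0.017 without the filter, -0.032 with DESeq2, -0.059 with limma, -0.15 in the larger library set alone and -0.020 in the fit of all 10 libraries. WNT5A became -0.0023 with DESeq2, and limma gave LRP6 0.14 and WNT3 -0.12. With the library set as covariate, FZD3 was 0.010, LGR4 0.077 and LRP6 0.21, and in the larger set alone FZD1 was 0.13, FZD3 0.29, FZD8 0.13, LGR4 0.48, LRP6 0.65 and TCF7 -0.0057. Leaving out 1 library gave -0.17 to 0.25 for DKK3, -0.22 to 0.059 for FZD1, -0.30 to 0.39 for FZD3, -0.43 to 0.096 for FZD8, -0.50 to 0.056 for FZD9, -0.47 to 0.54 for LGR4, -0.29 to 0.73 for LRP6, -0.44 to 0.12 for RNF43, -0.074 to 0.45 for TCF7, -0.41 to 0.68 for WNT3 and -0.64 to 1.03 for WNT5A. In H1944 the range was -0.28 to 0.028 for FZD7 and -0.00075 to 0.26 for WNT2B, and for the difference it was -0.0079 to 0.59 for WNT9A.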

Other observations

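Some members below the filter held counts in 1 group. WNT16, a ligand of bone and skin, had 13 and 8 counts in H1944 WT and 4 and 3 in KO, and at most 1 count in any A549 library. WNT9B had 11 counts over the 3 A549 KO libraries, 4 of them in KO 16 and 7 in KO 66, and 1 over the WT libraries, a count ratio of 11 with a 95% interval of 1.6 to 474 that covers counting error only. WNT7A had 30 counts in A549 KO 16 and at most 4 in any other library. These genes were picked after their values were seen.

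Among targets outside the members, also picked after their values were seen, MMP7, a metalloproteinase of epithelia, was at 3.14 ± 0.0634 CPM in H1944 WT and 0.0679 ± 0.0462 CPM in KO (SD, n = 2; log2 -5.42, edgeR adjusted p = 1.7e-09), and at 66.9 ± 13.5 and 124 ± 87.5 CPM (n = 3) in A549. The difference between lines was 6.28 (edgeR adjusted p = 0.00776). SP5, a transcription factor often used as a direct readout of beta-catenin, was at 0.538 ± 0.491 and 2.32 ± 0.809 CPM in H1944 (log2 2.07, adjusted p = 0.0017).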
